A study of Mus musculus with 96 samples.

Results

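Trem2, a lipid-sensing receptor on the surface of microglia, and 9 further genes of the disease-associated microglia programme were followed over all 96 libraries of the series. The 10 genes are Trem2, Tyrobp, Apoe, Lpl, Spp1, Cst7, Axl, Cd9, Cd68 and Lgals3. They were taken by symbol from a table of 22709 genes, and all 10 were present. The series measured messenger RNA in bulk mouse hippocampus and prefrontal cortex. It asks how injections of the CSF1R inhibitor PLX5622 (PLX), meant to renew microglia, act in mice that had maternal immune activation (MIA) or saline. CSF1R is the receptor on which microglia depend for survival. Each tissue had 8 groups, namely MIA with PLX, MIA without inhibitor, saline with PLX and saline without inhibitor, each in females and males. Groups held 6 libraries, except MIA control females with 7 and MIA control males with 5 in either tissue. The labels give no strain, age, agent of immune activation, inhibitor dose or interval after the last injection, and they do not say which mice shared a litter. Nothing in the labels says that libraries of a group came from separate mice, so p-values measure the spread between libraries.

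TREM2 signals through the adaptor TYROBP (DAP12), which carries the activating motif that the receptor itself lacks, and it binds lipids and lipoproteins such as those that hold apolipoprotein E. In mouse models of amyloid disease, microglia lower homeostatic genes such as P2ry12 and Tmem119 and raise Apoe, Lpl, Cst7, Spp1, Axl, Cd9, Cd68 and Lgals3, and the later step of that change depends on TREM2. In the resting brain Trem2 and Tyrobp are microglial, whereas Apoe is made above all by astrocytes, and Lpl, Spp1, Cd9 and Axl are also transcribed in other cells of the tissue. In bulk tissue, fewer cells of a type and less RNA per cell cannot be told apart.

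The promoters of Trem2, Axl and Cd68 are shown because the levels of these genes moved together from library to library, as described further on. Each runs from 250 bases before to 50 bases after the RefSeq start of the gene (GRCm38.p6, a build other than the one used for alignment), 5′ to 3′ on the strand of the gene. Trem2 lies at chr17:48346151-48346450, plus strand, Axl at chr7:25788684-25788983, minus strand and Cd68 at chr11:69666121-69666420, minus strand. Capitals mark GAGGAA or its reverse complement TTCCTC, the core bound by PU.1, a transcription factor of myeloid cells.
Trem2: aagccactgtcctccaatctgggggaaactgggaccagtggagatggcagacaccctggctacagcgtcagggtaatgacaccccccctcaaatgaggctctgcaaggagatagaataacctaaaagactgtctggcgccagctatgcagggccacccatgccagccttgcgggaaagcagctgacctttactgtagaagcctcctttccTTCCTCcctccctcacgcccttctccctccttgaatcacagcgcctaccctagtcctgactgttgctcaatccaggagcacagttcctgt
Axl: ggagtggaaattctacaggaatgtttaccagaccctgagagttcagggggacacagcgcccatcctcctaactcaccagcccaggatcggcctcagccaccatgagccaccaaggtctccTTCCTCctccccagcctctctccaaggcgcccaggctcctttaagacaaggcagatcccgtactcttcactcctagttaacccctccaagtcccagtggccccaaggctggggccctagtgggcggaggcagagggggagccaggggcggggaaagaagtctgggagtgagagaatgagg
Cd68: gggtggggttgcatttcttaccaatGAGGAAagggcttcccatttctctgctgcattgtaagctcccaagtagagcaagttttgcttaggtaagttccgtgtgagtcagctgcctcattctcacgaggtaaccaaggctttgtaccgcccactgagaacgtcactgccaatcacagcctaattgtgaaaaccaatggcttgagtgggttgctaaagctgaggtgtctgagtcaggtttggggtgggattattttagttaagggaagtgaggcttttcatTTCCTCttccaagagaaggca
The core occurred in 1 place in the Trem2 window, 1 in the Axl window and 2 in the Cd68 window, and in 28.3% of all 32851 promoters of the same length. RefSeq windows were matched for 8 of the 10 genes, without Tyrobp and Lpl, and Apoe and Spp1 had more than 1 window. The core was in 6 of the 11 windows, the count to set beside the 28.3%. By gene, 5 of these 8 had the core in at least 1 window, and Cst7, Cd9 and Lgals3 did not. A match of letters is a description and not a bound site.

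Each hippocampal library held between 22.2 and 26.7 M recovered reads, and each prefrontal one between 22.8 and 25.9 M. Prox1, a gene of dentate granule cells, lay at 1849 to 4758 in hippocampus, against 222 to 423 in prefrontal cortex, without overlap. In 14 libraries of each tissue, with the same 14 labels in both, 83 ribosomal protein genes and 83 nuclear genes of the respiratory chain took a larger share of the reads. That share was 1.2 to 1.38% in these libraries and 0.848 to 1.06% in the rest of hippocampus, and 1.17 to 1.34% against 0.816 to 1.13% in prefrontal cortex. They are called the high-share libraries. A label was counted only where its share fell in the higher of 2 clusters in both tissues. In prefrontal cortex 2 further controls, MIA control female 3 at 1.12% and saline control male 2 at 1.13%, fell in the higher cluster in that tissue alone, and they are counted with the rest. With all 16 prefrontal libraries of that cluster modelled or left out, 0 of 9 genes were called between PLX and control, beside 0.242% and 0.302% of all genes (chosen after seeing the data). The 14 shared labels were 2 of the 24 PLX labels and 12 of the 24 control labels, so PLX results are given with all libraries and then with a term for these libraries in the model or without them. The part of whatever sets them apart in a PLX difference was not tested.

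The highest of the 8 group means of Trem2 was 1.3 times the lowest in each tissue. Trem2 is given as normalised read count, that is, reads divided by a factor for the library, as mean ± SD. In hippocampus it averaged 225 ± 35.9 in MIA PLX females (n = 6) and 219 ± 43.8 in MIA control females (n = 7). In males after MIA it was 214 ± 24.4 with PLX (n = 6) and 234 ± 29.4 without (n = 5). Saline females had 228 ± 31.8 with PLX and 278 ± 52.2 without (n = 6 each), and saline males 240.3 ± 25.0 with PLX and 240.4 ± 27.4 without (n = 6 each). From the highest group, saline control females, to the lowest, MIA PLX males, the group means differed by a ratio of 1.3, and no neighbours in the order of the 8 means were further apart than the larger of their SDs. In prefrontal cortex Trem2 averaged 236 ± 31.6 in MIA PLX females and 244 ± 47.2 in MIA control females. MIA males had 236 ± 30.2 with PLX and 265 ± 38.4 without. Saline females had 214 ± 31.1 with PLX and 278 ± 76.2 without, and saline males 238 ± 19.3 with PLX and 272 ± 47.0 without (n as in hippocampus). Here too the order ran from saline control females down, to saline PLX females at the low end, and no neighbours differed beyond the larger SD. Neighbours among 8 ordered means lie close by construction, so this does not show that the groups are alike.

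**Figure D1:**
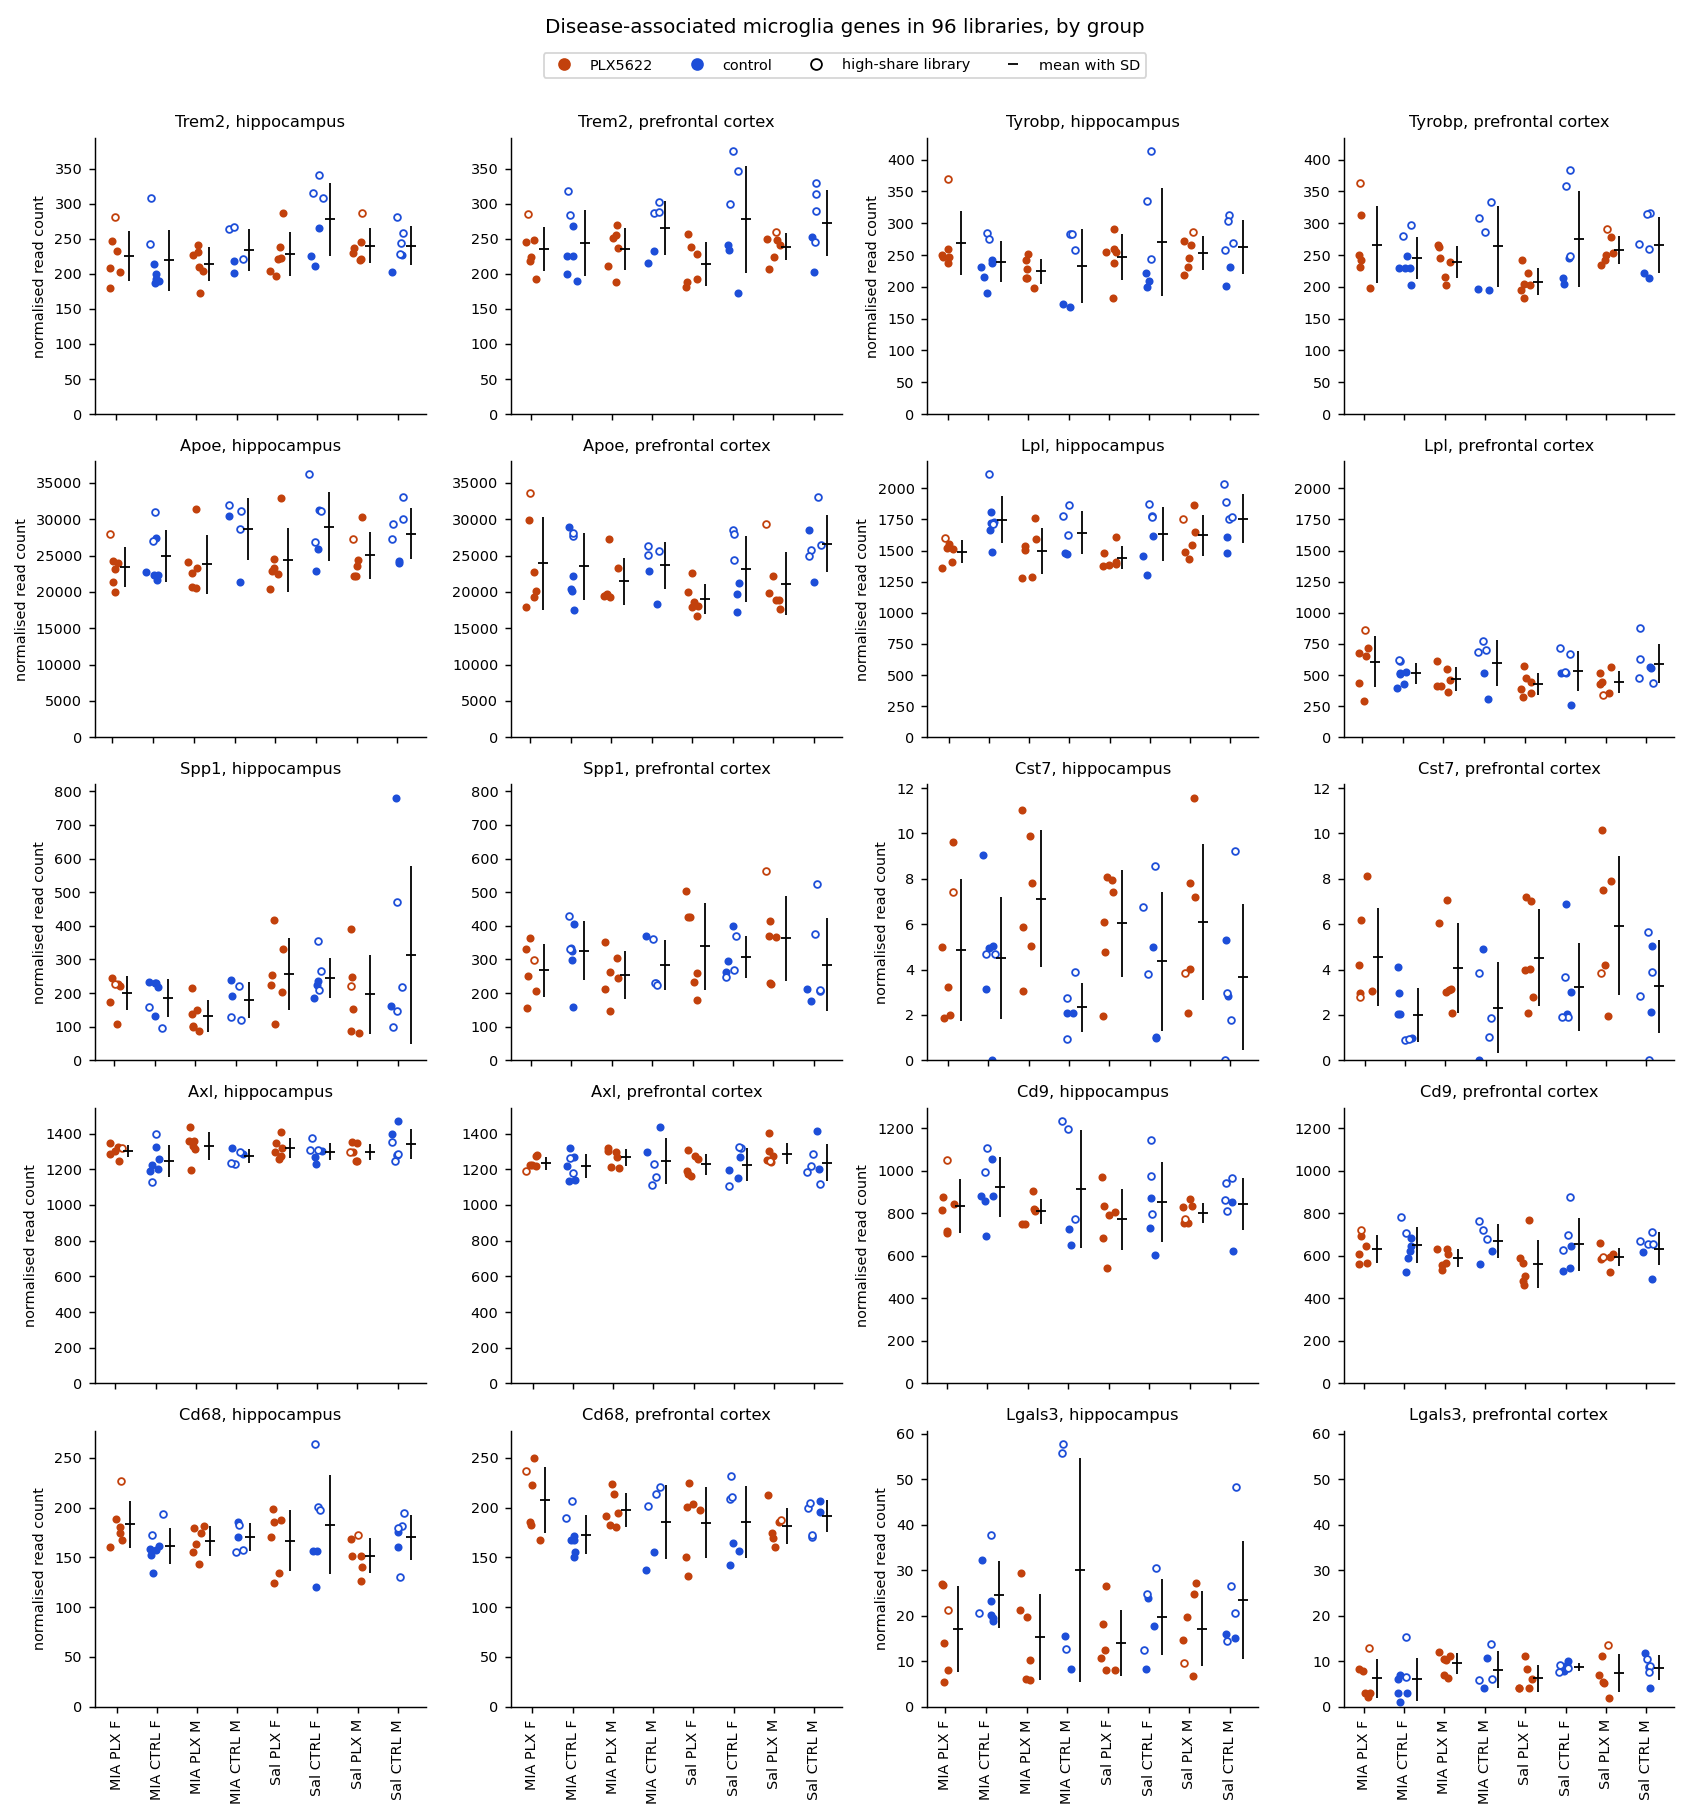
Normalised read count of each of the 10 genes (vertical axes, linear from 0) in every library of the 8 groups of hippocampus and of prefrontal cortex; the black bar is the group mean with its SD, orange is PLX5622, blue is control, and open circles are the high-share libraries. The open circles lie in the upper part of most panels of Trem2, Tyrobp, Apoe and Lpl.

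The receptor pair was compared between 24 PLX and 24 control libraries per tissue, averaged over sex and prenatal treatment. In prefrontal cortex Trem2 fell under PLX. It lay at 181 to 285 with a median of 237 in the 24 PLX libraries, against 172 to 375 with a median of 260.4 in the 24 control libraries, so the PLX values reached less high while the low ends were alike. The log2 difference was -0.18 (95% interval -0.32 to -0.039, adjusted p = 0.0389) by limma on log2(count + 1), with adjustment over all genes. In hippocampus Trem2 was 173 to 287 with a median of 225 in the 24 PLX libraries, against 187 to 340.4 with a median of 228 in the 24 control libraries, with a log2 difference of -0.087 (95% interval -0.21 to 0.033, adjusted p = 0.244) that did not pass. Tyrobp, the signalling adaptor, lay at 183 to 369.6 with a median of 247 in the 24 PLX libraries, against 168 to 413 with a median of 243 in the 24 control libraries in hippocampus, and the log2 difference was 0.00073 (95% interval -0.15 to 0.15, adjusted p = 0.995). In prefrontal cortex Tyrobp was 182 to 363 with a median of 242 in the 24 PLX libraries, against 194 to 383 with a median of 248 in the 24 control libraries, with -0.10 (95% interval -0.25 to 0.041, adjusted p = 0.255).

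Both genes were higher in the high-share libraries than in the rest, and these are mostly controls. Trem2 was 246 to 375 with a median of 295 in the 14 high-share libraries, against 172 to 269 with a median of 227 in the other 34 in prefrontal cortex, and the ranges overlapped only between 246 and 269. The term for these libraries was 0.36 (SE 0.055) log2 for Trem2 in hippocampus and 0.42 (SE 0.065) in prefrontal cortex. For Tyrobp it was 0.48 (SE 0.061) and 0.46 (SE 0.06), larger in size than the averaged PLX difference of either gene. With the term in the model the PLX difference of Trem2 was 0.068 (95% interval -0.029 to 0.17, adjusted p = 0.526) in hippocampus and 0.00043 (95% interval -0.12 to 0.12, adjusted p = 0.998) in prefrontal cortex, so the call in prefrontal cortex was lost. Tyrobp then had 0.21 (95% interval 0.10 to 0.32, adjusted p = 0.0612) in hippocampus and 0.10 (95% interval -0.012 to 0.20, adjusted p = 0.478) in prefrontal cortex.

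Without the high-share libraries, Tyrobp in hippocampus was 183 to 290.2 with a median of 246 in the 22 PLX libraries, against 168 to 242 with a median of 213 in the 12 control libraries. In that comparison 13 of the 22 PLX libraries lay above the highest control library. The log2 difference was 0.24 (SE 0.055, unadjusted p = 0.000133), but its adjusted p over all genes was 0.122, so it was not called. In prefrontal cortex the corresponding difference was 0.12 (SE 0.056, adjusted p = 0.466), with 7 of 22 PLX libraries above the highest control. Trem2 without these libraries differed by 0.052 (SE 0.057, adjusted p = 0.779) in hippocampus and 0.033 (SE 0.068, adjusted p = 0.926) in prefrontal cortex. Only 2 PLX libraries are high-share ones, with Trem2 at 259 and 285 in prefrontal cortex, inside the control range of 246 to 375.

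**Figure D2:**
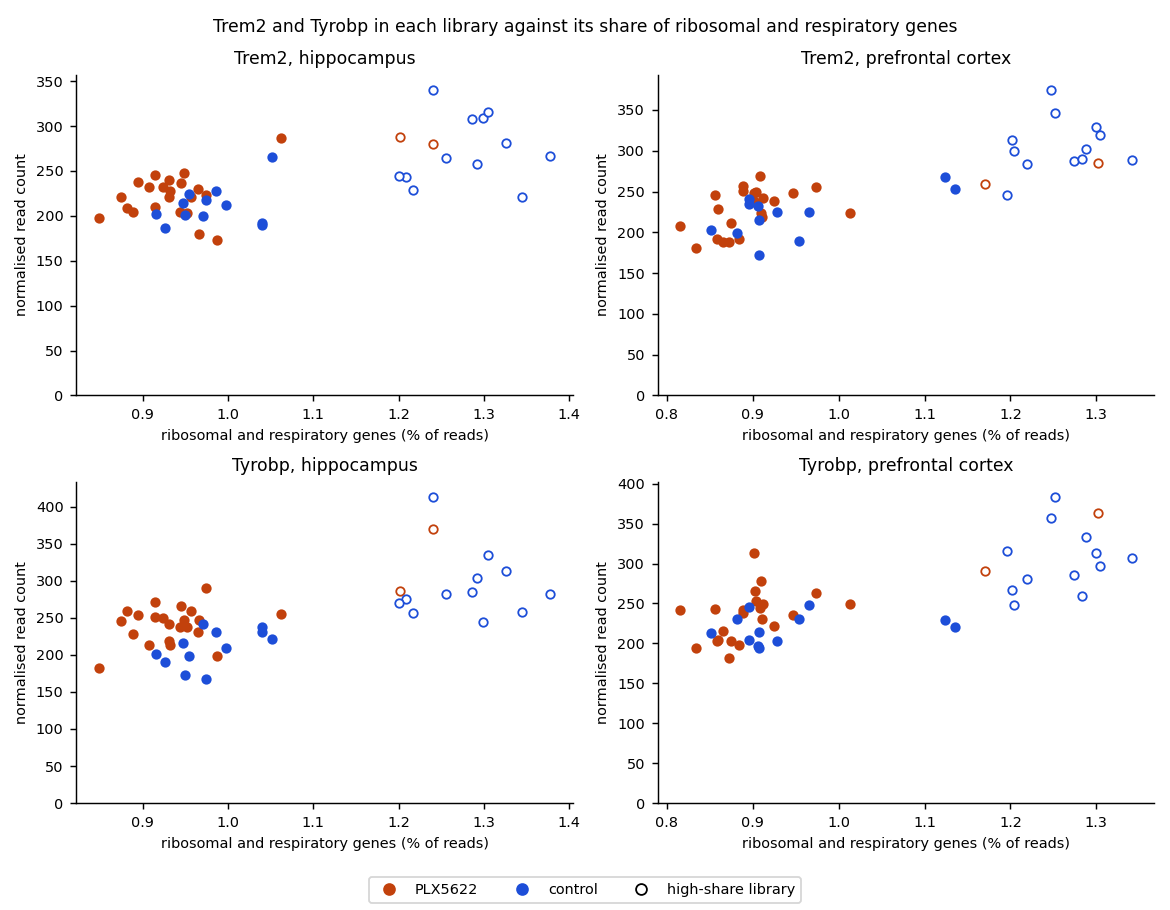
Trem2 and Tyrobp (normalised read count, vertical axes from 0) in each library against the percentage of reads from ribosomal protein and respiratory chain genes (horizontal axes); orange is PLX5622, blue is control, open circles are the high-share libraries. The open circles lie at the right in every panel, and 12 of the 14 in each tissue are controls. In prefrontal cortex the filled control points at 1.12 and 1.13% fell in the same cluster as the open circles. Among the filled points the orange Tyrobp points of hippocampus reach above the blue ones, up to 290.2 against 242.

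Apoe, the main apolipoprotein of the brain, fell under PLX in both tissues. In hippocampus it lay at 19949 to 32953 with a median of 23324 in the 24 PLX libraries, against 21364 to 36143 with a median of 27334 in the 24 control libraries, a log2 difference of -0.19 (95% interval -0.31 to -0.075, adjusted p = 0.00872). In prefrontal cortex it was 16684 to 33619 with a median of 19651 in the 24 PLX libraries, against 17222 to 32987 with a median of 25002 in the 24 control libraries, with -0.19 (95% interval -0.33 to -0.043, adjusted p = 0.0358). The medians were lower with PLX while the ranges overlapped over most of their length. Lpl, the lipase that frees fatty acids from lipoproteins, fell in hippocampus, where it was 1279 to 1865 with a median of 1511 in the 24 PLX libraries, against 1305 to 2111 with a median of 1724 in the 24 control libraries. Its log2 difference was -0.16 (95% interval -0.25 to -0.075, adjusted p = 0.00354). In prefrontal cortex Lpl lay at 295 to 860.0 with a median of 444 in the 24 PLX libraries, against 261 to 876 with a median of 524 in the 24 control libraries, and -0.20 (95% interval -0.43 to 0.016, adjusted p = 0.135) did not pass. Apoe and Lpl were also higher in the high-share libraries, by 0.27 (SE 0.062) and 0.23 (SE 0.043) log2 in hippocampus and 0.40 (SE 0.069) and 0.39 (SE 0.13) in prefrontal cortex. With the term, no difference of these genes was called. Apoe then had -0.076 (95% interval -0.19 to 0.036, adjusted p = 0.543) in hippocampus and -0.014 (95% interval -0.14 to 0.11, adjusted p = 0.957) in prefrontal cortex, and Lpl -0.065 (95% interval -0.14 to 0.012, adjusted p = 0.429) and -0.038 (95% interval -0.27 to 0.19, adjusted p = 0.94).

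Cst7, the cysteine protease inhibitor cystatin F and one of the sharpest markers of the programme in mice, was higher with PLX. It was barely detected, with 0 to 11 reads per library, and it fell short of the filter on low values (a count of at least 10 in at least 5 libraries), so it was tested without that filter. In hippocampus it was 1.85 to 11.6 with a median of 6.0 in the 24 PLX libraries, against 0 to 9.22 with a median of 3.47 in the 24 control libraries, and it rose with PLX by 0.68 (95% interval 0.20 to 1.16, adjusted p = 0.0226) on the log2(count + 1) scale, which understates the change of a gene this low. In prefrontal cortex it was 1.96 to 10.1 with a median of 4.02 in the 24 PLX libraries, against 0 to 6.87 with a median of 2.09 in the 24 control libraries, and it rose by 0.72 (95% interval 0.31 to 1.12, adjusted p = 0.00696). The groups overlapped, and 4 hippocampal and 7 prefrontal PLX libraries lay above every control library. With the high-share libraries modelled, the difference was 0.81 (95% interval 0.27 to 1.35, adjusted p = 0.148) in hippocampus and 0.55 (95% interval 0.093 to 1.01, adjusted p = 0.321) in prefrontal cortex, and it was no longer called. Without those libraries it was 0.77 (SE 0.29, adjusted p = 0.343) and 0.63 (SE 0.26, adjusted p = 0.443). All 8 differences between PLX and control within a sex and prenatal treatment were positive, at 0.15 to 1.25, and none was called on its own. Without the filter 35.3% of 22709 genes were called in hippocampus and 32.8% in prefrontal cortex, which became 0.348% and 0.242% with the term and 0.0440% and 0.141% without the high-share libraries.

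Lgals3, galectin-3, a secreted lectin of activated phagocytes, was low and fell with PLX in hippocampus. It was 5.34 to 29.3 with a median of 14.3 in the 24 PLX libraries, against 8.25 to 57.8 with a median of 20.3 in the 24 control libraries, and the log2 difference was -0.58 (95% interval -1.01 to -0.15, adjusted p = 0.0294). With the term it was -0.36 (95% interval -0.83 to 0.12, adjusted p = 0.494), and leaving out any 1 of 3 libraries (MIA control males 4 and 6, MIA PLX female 5) also ended the call, within a range of -0.66 to -0.50 over all 48 such fits. In prefrontal cortex Lgals3 was 1.97 to 13.5 with a median of 6.95 in the 24 PLX libraries, against 1.02 to 15.4 with a median of 7.77 in the 24 control libraries, a difference of -0.11 (95% interval -0.49 to 0.27, adjusted p = 0.677) and a range of -0.17 to -0.04 over fits without 1 library. Spp1, osteopontin, a secreted phosphoprotein, varied widely, with a coefficient of variation of 56.1% over the 48 libraries of hippocampus. It lay at 80.9 to 418 with a median of 209 in the 24 PLX libraries, against 96.4 to 781 with a median of 218 in the 24 control libraries in hippocampus, with -0.22 (95% interval -0.58 to 0.15, adjusted p = 0.347) and a range of -0.28 to -0.13 over fits without 1 library. In prefrontal cortex it was 148 to 564 with a median of 281 in the 24 PLX libraries, against 158 to 526 with a median of 298 in the 24 control libraries, with 0.0017 (95% interval -0.26 to 0.27, adjusted p = 0.994). Saline control male 2 reached 781 in hippocampus, where the median of its group was 191, and the end of that range nearest to 0 is the fit without it. Without the high-share libraries the hippocampal difference of Spp1 was -0.47 (SE 0.22, adjusted p = 0.445).

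Of the remaining surface and lysosomal genes none was called on the deposited scaling. Axl, a receptor tyrosine kinase for phosphatidylserine-bound ligands, varied least of the 10 genes in both tissues, with a coefficient of variation of 5.09% in hippocampus and 6.06% in prefrontal cortex. It was 1196 to 1438 with a median of 1314 in the 24 PLX libraries, against 1129 to 1472 with a median of 1285 in the 24 control libraries in hippocampus, and its PLX difference was 0.027 (95% interval -0.02 to 0.073, adjusted p = 0.365), with 0.028 (95% interval -0.027 to 0.084, adjusted p = 0.43) in prefrontal cortex. Cd9, a tetraspanin, lay at 465 to 769.6 with a median of 590.4 in the 24 PLX libraries, against 491 to 875 with a median of 651 in the 24 control libraries in prefrontal cortex, where -0.13 (95% interval -0.24 to -0.022, adjusted p = 0.0508) was not called. On recovered reads it was called lower by limma with TMM scaling (adjusted p = 0.0446), by edgeR's quasi-likelihood test (adjusted p = 0.0442) and by DESeq2 (adjusted p = 0.041), and with the term its adjusted p was 0.932. In hippocampus Cd9 differed by -0.12 (95% interval -0.26 to 0.022, adjusted p = 0.174). Cd68, a lysosomal glycoprotein of phagocytes, was 131 to 250.2 with a median of 190.1 in the 24 PLX libraries, against 137 to 232 with a median of 181 in the 24 control libraries in prefrontal cortex and differed by 0.07 (95% interval -0.055 to 0.20, adjusted p = 0.382), and by -0.031 (95% interval -0.16 to 0.10, adjusted p = 0.72) in hippocampus. Without the high-share libraries Cd68 in prefrontal cortex was 131 to 250.2 with a median of 189 in the 22 PLX libraries, against 137 to 206 with a median of 160.0 in the 12 control libraries, and its difference was 0.20 (SE 0.069, adjusted p = 0.314).

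Counted together, 3 of the 9 genes tested in hippocampus (Apoe, Lpl and Lgals3) and 2 of 9 in prefrontal cortex (Apoe and Trem2) were called lower with PLX, and 0 higher. Over all genes tested, 40% were called in hippocampus and 37.8% in prefrontal cortex, with 19.2% and 18.1% of all genes called lower. The share of the 9 genes therefore lay near that of all genes. Cst7, which is not among these 9, was called higher in both tissues without the filter on low values, beside 35.3% and 32.8% of all genes. The median log2 difference of the 9 genes was -0.12 in hippocampus and -0.11 in prefrontal cortex, beside -0.0017 and -0.00024 over all genes. That median was 0.019 and 0.0014 with the high-share term, and 0.0024 and 0.021 without the high-share libraries. With the high-share term, 0 of the 9 genes were called in either tissue, against 0.376% of all genes in hippocampus and 0.217% in prefrontal cortex, and 1 of 9 had an unadjusted p under 0.05 in each (Tyrobp in hippocampus, Cd68 in prefrontal cortex). Without these libraries the count was again 0, against 0.0457% and 0.143%, with 2 of 9 at an unadjusted p under 0.05 in each tissue. In prefrontal cortex the count of 2 moved between 0 and 4 when single libraries were left out, and Trem2 lost its call without any 1 of 20 libraries.

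**Figure D3:**
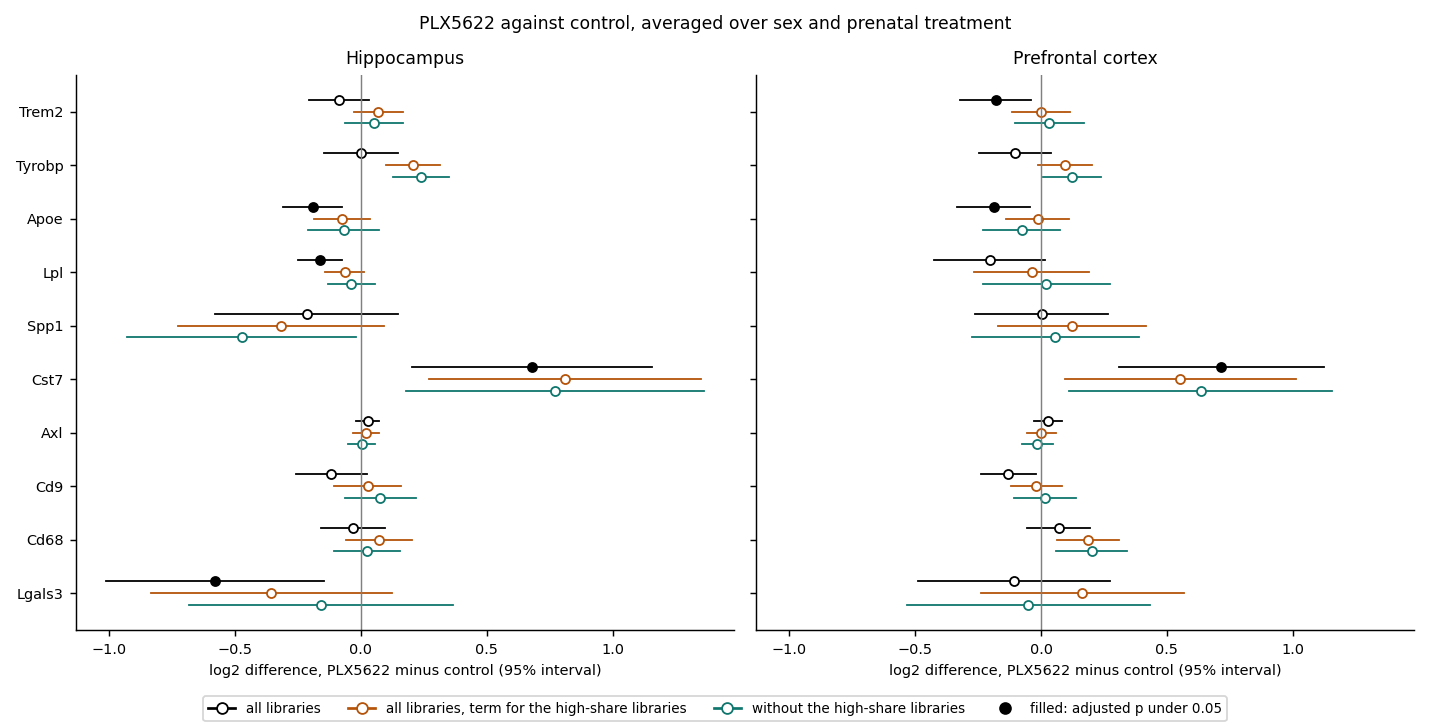
Log2 difference of each gene, PLX5622 minus control, averaged over sex and prenatal treatment (horizontal axes, with 95% intervals), with all libraries (black), with a term for the high-share libraries (orange) and without those libraries (green); filled points have an adjusted p under 0.05, and Cst7 was fitted without the filter on low values. Filled points appear for Apoe, Lpl and Lgals3 in hippocampus, for Apoe and Trem2 in prefrontal cortex and for Cst7 in both, and only in the black series.

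Within a sex and prenatal treatment, 0 of 36 gene and group pairs per tissue were called between PLX and control. In hippocampus 4 of the 36 pairs had an unadjusted p under 0.05 and the lowest adjusted p was 0.14. In prefrontal cortex 5 of 36 did, with a lowest adjusted p of 0.122. Across all genes these comparisons called 0.00502%, 0.00502%, 0.0301% and 0.0251% in hippocampus and 0.0252%, 0.0202%, 0.0252% and 0.338% in prefrontal cortex, in the order MIA females, MIA males, saline females and saline males. In the same order 7.71%, 28.2%, 22.7% and 20.2% of all genes had an unadjusted p under 0.05 in hippocampus and 7.59%, 24.9%, 17.8% and 27.8% in prefrontal cortex, so the 4 and 5 pairs show nothing particular to these genes. Saline PLX females had the lowest group means of Trem2 and Tyrobp in prefrontal cortex. Trem2 was 181 to 257 with a median of 210.4 in PLX libraries, against 172 to 375 with a median of 270.2 in controls, a log2 difference of -0.34 (SE 0.14, unadjusted p = 0.0191, adjusted p = 0.273). Tyrobp was 182 to 242 with a median of 204 in PLX libraries, against 204 to 383 with a median of 247 in controls, with -0.37 (SE 0.14, unadjusted p = 0.0129, adjusted p = 0.273). The 3 high-share control females hold the highest values of both genes. Apoe in saline males was 17576 to 29342 with a median of 19358 with PLX, against 21353 to 32987 with a median of 26070.0 without, with -0.34 (SE 0.14, unadjusted p = 0.0201, adjusted p = 0.122). Of the 6 control males 4 are high-share libraries, as is PLX male 5, which held the highest PLX value (29342). With the term the difference was -0.14 (SE 0.11, adjusted p = 0.61), and without the high-share libraries, which leaves 2 controls, -0.34 (SE 0.16, adjusted p = 0.278). That pair was called when saline control male 6 (adjusted p = 0.0479) or saline PLX male 5 (adjusted p = 0.0383) was left out, and Apoe in hippocampal MIA males when MIA control male 2 was left out (adjusted p = 0.034). In MIA females of prefrontal cortex Cd68 was 168 to 250.2 with a median of 204 with PLX, against 150.0 to 207 with a median of 167 without, with 0.26 (SE 0.12, unadjusted p = 0.0363, adjusted p = 0.613).

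Homeostatic microglial genes fell with PLX, though most of the hippocampal calls were lost without the high-share libraries. P2ry12, the purinergic receptor of resting microglia, had log2 differences of -0.27 (SE 0.043, adjusted p = 0.00013) in hippocampus and -0.33 (SE 0.05, adjusted p = 7.09e-05) in prefrontal cortex. With the term these were -0.24 (SE 0.047, adjusted p = 0.0106) and -0.32 (SE 0.056, adjusted p = 0.00172). Cx3cr1, the fractalkine receptor, differed with the term by -0.21 (SE 0.05, adjusted p = 0.0395) in hippocampus and -0.28 (SE 0.051, adjusted p = 0.00262) in prefrontal cortex. Csf1r, the target of the inhibitor, differed by -0.088 (SE 0.037, adjusted p = 0.242) and -0.19 (SE 0.036, adjusted p = 0.00278), and Tmem119 by -0.036 (SE 0.052, adjusted p = 0.785) and -0.063 (SE 0.053, adjusted p = 0.674). The hippocampal calls of P2ry12, at -0.21 (SE 0.054, adjusted p = 0.168), and Cx3cr1, at -0.20 (SE 0.053, adjusted p = 0.185), were lost without the high-share libraries. In prefrontal cortex P2ry12 then differed by -0.30 (SE 0.065, adjusted p = 0.0428), Cx3cr1 by -0.29 (SE 0.052, adjusted p = 0.00476) and Csf1r by -0.19 (SE 0.032, adjusted p = 0.00159). Of 18 microglial markers, 0 were called higher and 11 lower in hippocampus with all libraries, and 2 higher and 3 lower with the term. In prefrontal cortex 0 were called higher and 10 lower, and with the term 2 and 7, beside 40% and 37.8% of all genes called and 0.376% and 0.217% with the term. The 2 that were higher with the term were C1qa, a complement subunit, and Ctss, the protease cathepsin S, in both tissues. Without the high-share libraries the counts were 0 higher and 1 lower (Fcrls) in hippocampus, and 2 higher and 6 lower in prefrontal cortex. As a description, the log2 level of Tyrobp minus the mean of P2ry12, Tmem119, Cx3cr1 and Csf1r was -2.05 ± 0.19 in PLX and -2.23 ± 0.23 in control hippocampus, and -2.07 ± 0.22 and -2.2 ± 0.24 in prefrontal cortex (SD, n = 24 each). For Trem2 it was -2.18 ± 0.18 in PLX and -2.28 ± 0.18 in control hippocampus, and -2.13 ± 0.17 and -2.19 ± 0.27 in prefrontal cortex. PLX minus control, these levels differed by 0.18 for Tyrobp and 0.10 for Trem2 in hippocampus, and by 0.13 and 0.059 in prefrontal cortex. These differences were 0.33 and 0.21 in hippocampus, and 0.30 and 0.24 in prefrontal cortex without the high-share libraries (n = 22 PLX and 12 control). The subtracted genes had negative PLX differences themselves in either set of libraries, so a gene that does not move gets a positive value here. With all libraries Axl had 0.21 and 0.26 and Cd68 0.16 and 0.31, and neither was called for PLX. Spp1 and Lgals3 were negative in hippocampus, at -0.032 and -0.40. A rise of Tyrobp or Trem2 per microglial cell was not tested.

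Among other genes of the same programme a few rose also with the term. Of 28 further disease-associated genes tested, 5 were called higher and 7 lower in hippocampus and 6 and 8 in prefrontal cortex, beside 40% and 37.8% of all genes called, so that these counts lay near the share of all genes. With the term 2 were higher and 0 lower in hippocampus, and 4 and 0 in prefrontal cortex, beside 0.376% and 0.217% of all genes. Without the high-share libraries the counts were 1 and 0 (Cd52), and 3 and 0 (Lyz2, Cd52 and Clec7a). Itgax (CD11c), the integrin of dendritic cells and of disease-associated microglia, was 4.82 to 19.7 with a median of 11.6 in PLX libraries, against 1.86 to 12.4 with a median of 5.91 in control libraries in hippocampus, and it rose by 0.79 (SE 0.13, adjusted p = 0.000317), and by 0.73 (SE 0.15, adjusted p = 0.0237) with the term. In prefrontal cortex Itgax rose by 1.1 (SE 0.16, adjusted p = 3.21e-05), and by 1.08 (SE 0.19, adjusted p = 0.00104) with the term. Clec7a, the beta-glucan receptor dectin-1, rose by 0.85 (SE 0.18, adjusted p = 0.00106) in hippocampus and 0.98 (SE 0.17, adjusted p = 0.000479) in prefrontal cortex, where it was 7.36 to 22.5 with a median of 13.2 in PLX libraries, against 0.995 to 12.3 with a median of 6.92 in control libraries. With the term it was called in prefrontal cortex, at 1.06 (SE 0.20, adjusted p = 0.00262). Cd52, a small glycoprotein of leukocytes, rose by 0.85 (SE 0.15, adjusted p = 0.00235) and 0.82 (SE 0.11, adjusted p = 8.31e-06) with the term. Lyz2, lysozyme, rose by 0.39 (SE 0.11, adjusted p = 0.00479) and 0.57 (SE 0.084, adjusted p = 3.25e-05), and with the term by 0.73 (SE 0.081, adjusted p = 5.52e-08) in prefrontal cortex. Fabp5, a fatty acid carrier, fell, with log2 differences of -0.26 (SE 0.052, adjusted p = 0.000807) and -0.25 (SE 0.058, adjusted p = 0.00174). Ctsl, a lysosomal protease, fell likewise, with -0.22 (SE 0.055, adjusted p = 0.00243) and -0.17 (SE 0.042, adjusted p = 0.00327), and neither was called with the term. Itgax, Clec7a, Cd52 and Lyz2 are also made by other leukocytes. Of 12 listed markers of other leukocytes 5 were present. Their summed level was 45.9 to 86.1 with a median of 63.8 in PLX and 35.1 to 77.2 with a median of 53.5 in control hippocampus. In prefrontal cortex it was 62.0 to 109 with a median of 81.7 in PLX and 48.5 to 88.6 with a median of 62.1 in control libraries. None of the 5 was at 0 in all libraries. Of these 5, 4 were tested in hippocampus and 5 in prefrontal cortex, and 1, Ly9, was called higher in each, also with the term. The part of such cells in these results was not tested.

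Few genes of TREM2 signalling and lipid handling were called once the high-share libraries were modelled. Of 17 TREM2 signalling genes tested in hippocampus and 18 in prefrontal cortex, 3 were called higher and 0 lower in each, beside 40% and 37.8% of all genes. Plcg2, the phospholipase downstream of TREM2, rose by 0.20 (SE 0.057, adjusted p = 0.00572) in hippocampus, and Vav3, a guanine nucleotide exchange factor, by 0.22 (SE 0.064, adjusted p = 0.00589) and 0.19 (SE 0.049, adjusted p = 0.00376). Adam17, one of the proteases that shed TREM2, rose by 0.13 (SE 0.037, adjusted p = 0.00611) in hippocampus and Adam10, the other, by 0.12 (SE 0.037, adjusted p = 0.0108) in prefrontal cortex. With the term 0 genes of this list were called in hippocampus and 1 in prefrontal cortex. It was Ms4a6d, a gene of the cluster linked to soluble TREM2 in humans, which rose by 0.67 (SE 0.13, adjusted p = 0.00269). Of 20 genes of lipid handling, 5 were called higher and 3 lower in hippocampus and 6 and 3 in prefrontal cortex, near the 40% and 37.8% of all genes. Lrp1, a receptor for apolipoprotein E, rose by 0.30 (SE 0.075, adjusted p = 0.00268) and 0.30 (SE 0.087, adjusted p = 0.00783), Abca1, a lipid exporter, by 0.27 (SE 0.072, adjusted p = 0.0036) in hippocampus. Pltp, a phospholipid carrier, fell, with log2 differences of -0.19 (SE 0.076, adjusted p = 0.0423) and -0.25 (SE 0.055, adjusted p = 0.00168). Of 8 genes of the TAM receptor family and its ligands, 2 were called higher and 2 lower in hippocampus and 2 and 1 in prefrontal cortex, also near the share of all genes. Mertk, the relative of Axl, rose by 0.31 (SE 0.073, adjusted p = 0.00166) and 0.22 (SE 0.075, adjusted p = 0.0188), and Mfge8, a bridging ligand, fell, with -0.16 (SE 0.042, adjusted p = 0.00347) and -0.18 (SE 0.052, adjusted p = 0.00807). None of the lipid and TAM genes was called with the term.

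Maternal immune activation moved none of these genes past the threshold. Averaged over sex and inhibitor, 0 of 9 were called in either tissue by limma, by edgeR's quasi-likelihood test or by DESeq2, and limma called 0% of all genes in either tissue. In hippocampus 2 of 9 had an unadjusted p under 0.05, and in prefrontal cortex 0. Trem2 in hippocampus was 173 to 308 with a median of 216 in the 24 MIA libraries, against 197 to 340.4 with a median of 233 in the 24 saline libraries, a log2 difference of -0.14 (95% interval -0.26 to -0.022, adjusted p = 0.922). Spp1 in hippocampus was 87.0 to 244 with a median of 182 in the 24 MIA libraries, against 80.9 to 781 with a median of 222 in the 24 saline libraries, with -0.40 (95% interval -0.77 to -0.042, adjusted p = 0.997). In prefrontal cortex the same differences were -0.02 (95% interval -0.16 to 0.12, adjusted p = 0.996) for Trem2 and -0.17 (95% interval -0.43 to 0.10, adjusted p = 0.94) for Spp1. Within a sex and inhibitor level 0 of 36 pairs were called in either tissue, beside 0.00502% of all genes in hippocampal control females and 0% in the other 7 comparisons, and 1 of 36 in hippocampus and 4 of 36 in prefrontal cortex had an unadjusted p under 0.05. Over all genes that share was 2.74%, 2.47%, 6.41% and 2.38% in hippocampus and 5.35%, 2.89%, 5.0% and 2.56% in prefrontal cortex, in the order PLX females, PLX males, control females and control males. The pair in hippocampus was Trem2 in control females, at 187 to 308 with a median of 199 after MIA, against 212 to 340.4 with a median of 287 after saline, with -0.34 (SE 0.11, unadjusted p = 0.00469, adjusted p = 0.666). Of these, 2 of the 7 MIA and 3 of the 6 saline females are high-share ones, and with the term the difference was -0.26 (adjusted p = 0.391). Among PLX females of prefrontal cortex, Tyrobp was 198 to 363 with a median of 246 after MIA, against 182 to 242 with a median of 204 after saline, with 0.33 (SE 0.14, unadjusted p = 0.0232, adjusted p = 0.757). The value of 363 is that of MIA PLX female 6, the only high-share library of both groups, and with the term the difference was 0.26 (SE 0.093, adjusted p = 0.72). The remaining prefrontal pairs were 1 each of Apoe, Lpl and Lgals3. Over the 4 MIA comparisons there, Apoe ran from -0.17 to 0.30, Lpl from -0.014 to 0.44 and Lgals3 from -0.73 to 0.48. Their lowest adjusted p by limma was 0.757, 0.757 and 0.906. Mice of 1 litter would not be independent replicates of MIA, and litter could not be modelled.

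The interplay of the factors gave no call among these genes. For the MIA by PLX interaction, 0 of 9 were called in either tissue, 0 of 9 had an unadjusted p under 0.05, and 0% of all genes were called. The smallest p belonged to Axl, at 0.078 (SE 0.046, unadjusted p = 0.0971, adjusted p = 1.00) in hippocampus and to Cd68, at 0.23 (SE 0.12, unadjusted p = 0.0749, adjusted p = 0.887) in prefrontal cortex. The sex difference of the PLX effect (females minus males) likewise had 0 of 9 called and 0 of 9 under 0.05, beside 0% of all genes, and the smallest p was that of Spp1, at 0.53 (SE 0.36, unadjusted p = 0.147, adjusted p = 0.857) in hippocampus and of Lpl, at 0.29 (SE 0.22, unadjusted p = 0.19, adjusted p = 0.823) in prefrontal cortex. Between females and males, 0 of 9 were called and 0 of 9 under 0.05, beside 0.246% of all genes in hippocampus and 0.141% in prefrontal cortex. The nearest was Spp1, at 0.28 (SE 0.18, unadjusted p = 0.121, adjusted p = 0.767) in hippocampus and Lgals3, at -0.32 (SE 0.19, unadjusted p = 0.0942, adjusted p = 0.879) in prefrontal cortex. Trem2 had a female minus male difference of 0.018 (95% interval -0.10 to 0.14, adjusted p = 0.972) in hippocampus. In prefrontal cortex it was -0.072 (95% interval -0.21 to 0.069, adjusted p = 0.932). A p that misses the threshold does not show that the groups are alike.

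Most of these genes differed between the tissues, at a share near that of all genes. In a fit of all 96 libraries, rescaled together, 7 of 9 genes were called between hippocampus and prefrontal cortex, 5 higher and 2 lower in hippocampus, beside 34.8% and 31.0% of all genes (65.8% in all). Lpl was 1269.7 to 2094 with a median of 1584 in the 48 hippocampal libraries, against 260.0 to 871 with a median of 517 in the 48 prefrontal libraries, without overlap, a log2 difference of 1.66 (SE 0.06, adjusted p = 6.25e-43). Lgals3 was 5.33 to 57.4 with a median of 19.0 in the 48 hippocampal libraries, against 1.01 to 15.2 with a median of 7.53 in the 48 prefrontal libraries, with 1.21 (SE 0.15, adjusted p = 4.55e-12). Cd9 was 542 to 1228 with a median of 822 in the 48 hippocampal libraries, against 462 to 868 with a median of 617 in the 48 prefrontal libraries, with 0.43 (SE 0.044, adjusted p = 1.81e-14). Lgals3 and Cd9 followed choroid plexus markers in hippocampus, as described further on. Summed, those markers were 936 to 90509 in PLX and 1064 to 97851 in control hippocampus, against 253 to 570 and 210 to 564 in prefrontal cortex. Their part in these tissue differences was not tested. Apoe was higher in hippocampus by 0.19 (SE 0.047, adjusted p = 0.000251) and Axl by 0.063 (SE 0.017, adjusted p = 0.00102), both with overlapping ranges. Spp1 was lower in hippocampus, at 80.4 to 774 with a median of 215 in the 48 hippocampal libraries, against 148 to 561 with a median of 296 in the 48 prefrontal libraries, with -0.60 (SE 0.11, adjusted p = 3.45e-06). Cd68 was lower in hippocampus as well, with -0.16 (SE 0.044, adjusted p = 0.00112). Trem2 was 172 to 336 with a median of 226 in the 48 hippocampal libraries, against 172 to 371 with a median of 242 in the 48 prefrontal libraries, and the difference of -0.074 (95% interval -0.17 to 0.017, adjusted p = 0.151) was not called; with the high-share term it was -0.074 (SE 0.033, adjusted p = 0.0374), where 71.4% of all genes were called. With the label shared by both tissues as a block Trem2 was called lower in hippocampus, at -0.074 (SE 0.034, adjusted p = 0.0434), beside 72.7% of all genes. Tyrobp differed by -0.018 (95% interval -0.12 to 0.084, adjusted p = 0.776). Cst7, without the filter, differed by 0.27 (95% interval -0.039 to 0.58, adjusted p = 0.126). The difference of the PLX effect between the tissues was called for 0 of 9 genes and for 0% of all genes, with 0 of 9 at an unadjusted p under 0.05. With the label as a block it was called for 0 of 9 genes and 0.0485% of all genes.

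**Figure D4:**
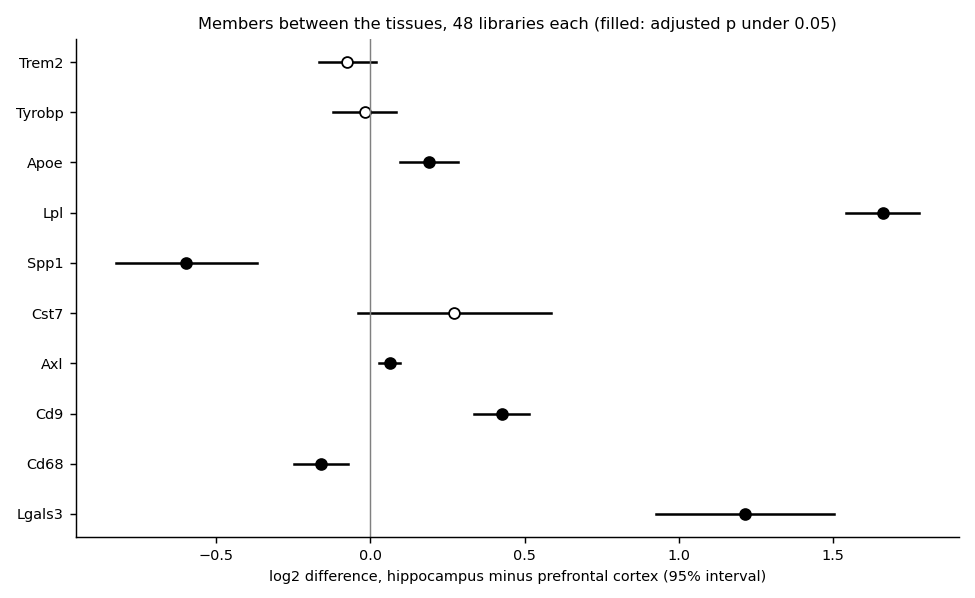
Log2 difference of each gene, hippocampus minus prefrontal cortex, in 48 libraries per tissue (horizontal axis, with 95% intervals); filled points have an adjusted p under 0.05, and Cst7 was fitted without the filter on low values. Lpl and Lgals3 lie far to the right, Spp1 lies to the left, and the intervals of Trem2, Tyrobp and Cst7 cross 0.

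From library to library the genes did not move as one block. After removal of group means and the high-share term, the 36 pairs of genes had a median Pearson's r of -0.0098 in hippocampus and 0.047 in prefrontal cortex (48 libraries each, adjusted over 72 relations; the 2 farthest libraries are those farthest from the median). Trem2 and Tyrobp moved together in both tissues. In hippocampus Pearson's r was 0.39 and Spearman's rho 0.41 (adjusted permutation p = 0.0395 and 0.0325), and r without the 2 farthest libraries was 0.36. In prefrontal cortex Pearson's r was 0.48 and Spearman's rho 0.48 (adjusted permutation p = 0.00965 and 0.0122), and r without the 2 farthest libraries was 0.47. Trem2 also went with Axl and Cd68, whose promoters are printed here. For Axl in hippocampus Pearson's r was 0.48 and Spearman's rho 0.45 (adjusted permutation p = 0.00965 and 0.0236), and r without the 2 farthest libraries was 0.48. For the same pair r was 0.32 in prefrontal cortex (adjusted p = 0.105). For Cd68 in hippocampus Pearson's r was 0.43 and Spearman's rho 0.41 (adjusted permutation p = 0.0215 and 0.0325), and r without the 2 farthest libraries was 0.38. With Cd68 r was 0.34 in prefrontal cortex (adjusted p = 0.0791). Trem2 and Tyrobp had the highest r of any pair in prefrontal cortex, practically level with Tyrobp and Cd68. For the latter pair r was also 0.48 (adjusted permutation p = 0.00965), and 0.47 without the 2 farthest libraries. In hippocampus the highest joined Cd9 and Lgals3, where Pearson's r was 0.67 and Spearman's rho 0.70 (adjusted permutation p = 0.00072 and 0.00036), and r without the 2 farthest libraries was 0.66. In prefrontal cortex the strongest relation was inverse, between Lpl and Spp1, where Pearson's r was -0.60 and Spearman's rho -0.57 (adjusted permutation p = 0.00072 and 0.00036), and r without the 2 farthest libraries was -0.56. Lpl and Spp1 were both related to striatal neuron markers there, as described further on. Values of a library share its dissection and depth.

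The genes were set against marker lists of 9 cell types, none of which contains them (mean log2 level of a list, 162 relations, not all of them named). Trem2 and Tyrobp went with 18 microglial markers in both tissues, and Cd9, Axl and Cd68 also did in prefrontal cortex. For Tyrobp in hippocampus Pearson's r was 0.56 and Spearman's rho 0.52 (adjusted permutation p = 0.00072 and 0.00324), and r without the 2 farthest libraries was 0.47. In prefrontal cortex Pearson's r was 0.57 and Spearman's rho 0.55 (adjusted permutation p = 0.00081 and 0.0018), and r without the 2 farthest libraries was 0.60. For Trem2 in hippocampus Pearson's r was 0.44 and Spearman's rho 0.46 (adjusted permutation p = 0.0136 and 0.0112), and r without the 2 farthest libraries was 0.46. In prefrontal cortex Pearson's r was 0.41 and Spearman's rho 0.44 (adjusted permutation p = 0.0222 and 0.0177), and r without the 2 farthest libraries was 0.44. There Trem2 went about as closely with oligodendrocyte markers, where Pearson's r was 0.43 and Spearman's rho 0.35 (adjusted permutation p = 0.0195 and 0.0686), and r without the 2 farthest libraries was 0.44, so that the rank correlation did not pass. Cd9 in prefrontal cortex had an r of 0.57 with the microglial markers (adjusted permutation p = 0.000694), as high as that of Tyrobp. Axl had 0.42 and Cd68 0.38 there (adjusted permutation p = 0.0202 and 0.044), and the rank correlation of Cd68 did not pass (0.0992). In hippocampus Cd9, Axl and Cd68 had 0.29, 0.34 and 0.34, and none passed. Cd68 in prefrontal cortex also went with oligodendrocyte markers, at an r of 0.42 and a rho of 0.46 (adjusted permutation p = 0.0195 and 0.0116). With striatal neuron markers it had an r of 0.40 and a rho of 0.41 there (adjusted permutation p = 0.0267 for each). Spp1 had an r of -0.025 and -0.18 with the microglial markers. In hippocampus it went with 8 markers of meningeal fibroblasts, where Pearson's r was 0.83 and Spearman's rho 0.80 (adjusted permutation p = 0.000324 and 0.000324), and r without the 2 farthest libraries was 0.80. In prefrontal cortex Spp1 ran opposite to 10 oligodendrocyte markers, where Pearson's r was -0.69 and Spearman's rho -0.77 (adjusted permutation p = 0.000324 and 0.000324), and r without the 2 farthest libraries was -0.72. Lpl in prefrontal cortex followed 8 markers of striatal projection neurons, where Pearson's r was 0.83 and Spearman's rho 0.77 (adjusted permutation p = 0.000324 and 0.000324), and r without the 2 farthest libraries was 0.78. Spp1 ran opposite to these striatal markers there, with r at -0.61 (adjusted permutation p = 0.000324). Lpl also went with oligodendrocyte markers there, with r at 0.55 (adjusted permutation p = 0.00118). The summed striatal markers ran from 6460 to 39510 in PLX and from 5991 to 36122 in control prefrontal cortex. Their part in the inverse relation of Lpl and Spp1 was not tested. Lgals3 in hippocampus followed 8 choroid plexus markers, where Pearson's r was 0.66 and Spearman's rho 0.65 (adjusted permutation p = 0.000324 and 0.000324), and r without the 2 farthest libraries was 0.62. Cd9 went with the same markers there, where Pearson's r was 0.56 and Spearman's rho 0.56 (adjusted permutation p = 0.00072 and 0.00081), and r without the 2 farthest libraries was 0.51. It went as closely with oligodendrocyte markers, where Pearson's r was 0.57 and Spearman's rho 0.55 (adjusted permutation p = 0.00054 and 0.00142), and r without the 2 farthest libraries was 0.58, and with r at 0.47 with border macrophage and 0.47 with astrocyte markers (adjusted permutation p = 0.00739 and 0.00739). Apoe did not follow astrocyte markers, with an r of -0.35 in hippocampus (adjusted permutation p = 0.0595) and -0.026 in prefrontal cortex. With microglial markers it had 0.003 and 0.041. Its only relation that passed was with neuron markers in prefrontal cortex, at 0.47 (adjusted permutation p = 0.00762). For Trem2 and the choroid plexus markers in hippocampus Pearson's r was -0.41 and Spearman's rho -0.33 (adjusted permutation p = 0.0222 and 0.0992), and r without the 2 farthest libraries was -0.33, so that the rank correlation did not pass. The summed level of the choroid plexus markers ran from 936 to 90509 in PLX and from 1064 to 97851 in control hippocampus, with medians of 3439 and 8303. Their part in the PLX difference of Lgals3 was not tested. The averaged PLX comparison called 0 of the 8 choroid plexus markers in hippocampus. Of border macrophage markers, 1 higher and 3 lower of 10 were called in hippocampus, and 4 higher and 3 lower of 10 in prefrontal cortex. Of astrocyte markers, 2 higher and 1 lower of 10 were called in hippocampus, and 2 higher and 1 lower of 10 in prefrontal cortex. Of oligodendrocyte markers, 0 higher and 1 lower of 10 were called in hippocampus, and 0 higher and 4 lower of 10 in prefrontal cortex. Of neuron markers, 2 higher and 4 lower of 10 were called in hippocampus, and 2 higher and 3 lower of 10 in prefrontal cortex. Of endothelial markers, 0 higher and 3 lower of 8 were called in hippocampus, and 0 higher and 3 lower of 8 in prefrontal cortex. Of meningeal fibroblast markers, 0 higher and 1 lower of 8 were called in hippocampus, and 1 higher and 0 lower of 8 in prefrontal cortex. Of striatal neuron markers, 2 higher and 1 lower of 8 were called in hippocampus, and 0 higher and 0 lower of 8 in prefrontal cortex. Of the choroid plexus markers it called 1 higher and 1 lower of 7 in prefrontal cortex. These counts stand beside 40% and 37.8% of all genes called. With the term 0 markers of astrocytes, oligodendrocytes, neurons, endothelium, meningeal fibroblasts, choroid plexus and striatal neurons were called in either tissue, and of the border macrophage markers 0 higher and 1 lower in hippocampus and 1 and 2 in prefrontal cortex. Only Cd163, a border macrophage marker, was called (lower, in each tissue) among these 8 lists without the high-share libraries. The smallest p that the 100000 permutations can give is 1e-05 before adjustment.

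**Figure D5:**
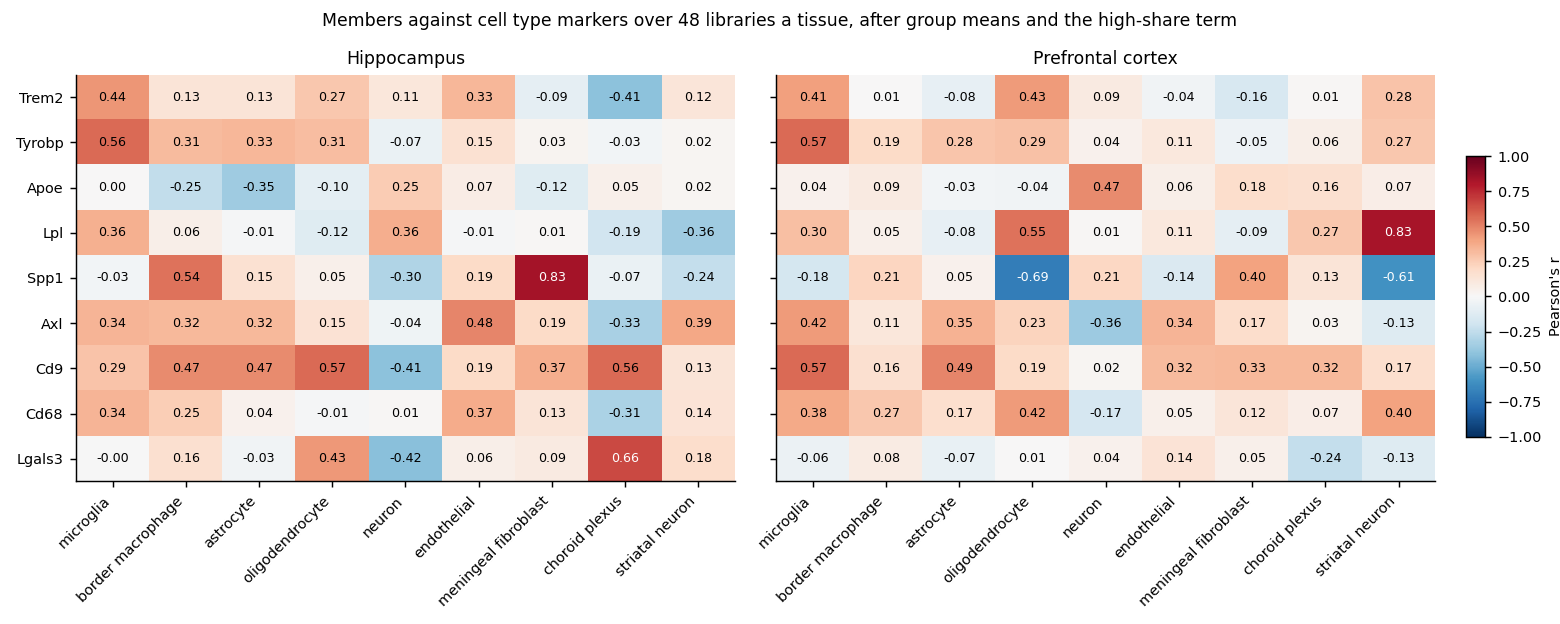
Pearson's r of the 9 genes that passed the filter (rows) with the mean log2 level of 9 cell type marker lists (columns) over 48 libraries per tissue, after group means and the high-share term; red is positive, blue negative. Trem2 and Tyrobp are red in the microglia column of both tissues (0.41 to 0.57), as are Cd9 (0.57), Axl (0.42) and Cd68 (0.38) in prefrontal cortex. Cd68 in prefrontal cortex is also red with oligodendrocyte (0.42) and striatal neuron (0.40) markers. The strongest cells are Spp1 with meningeal fibroblast markers in hippocampus and Lpl with striatal neuron markers in prefrontal cortex.

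The genes whose library-to-library pattern was most like that of Trem2 were named by the highest Pearson's r over the same 48 residuals among all other tested genes, as a description. In hippocampus they were Tlr1 (0.61), Adgre5 (0.61), Wdfy4 (0.60), Tubb4a (0.59), Mapt (0.58). Tlr1 is a Toll-like receptor, Adgre5 (CD97) an adhesion receptor of leukocytes and Mapt the microtubule protein tau. In prefrontal cortex they were Nubp2 (0.71), Hdac11 (0.66), Cox6a2 (0.66), Rpl35 (0.65), B4galt2 (0.65). Hdac11 is a histone deacetylase and Rpl35 a protein of the large ribosomal subunit. Rpl35 and Cox6a2 belong to the genes whose share defines the high-share libraries, and the term only separates those libraries from the rest. Whether variation of that share remains in these residuals was not tested.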

How the data were processed

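Bulk RNA-seq of mouse hippocampus and prefrontal cortex was used (miRNeasy Micro extraction, stranded mRNA libraries, per the labels' protocols). Trimmomatic, STAR 2.6.1d and the build GRCm39 are named in the submitters' processing notes, with no counting tool. Values of the deposited table are a signal, each read count over its library's scale factor, and whole reads were recovered in 96 of 96 columns (within 0.01 of a read). Per the labels, groups follow tissue, prenatal treatment, inhibitor and sex. The main test was limma 3.58.1 (R 4.3.3) with a trend on log2(signal + 1) over genes at 10 or more in at least 5 libraries, fitted per tissue on all 8 groups, with Benjamini-Hochberg adjustment over all genes and a threshold of 0.05. The tissue comparison used all 96 libraries, rescaled together, with limma. Alternatives were edgeR 4.0.16 quasi-likelihood and DESeq2 1.42.0 on the recovered reads, TMM scaling, a pseudocount of 4, no filter, a replicate block, single libraries left out, and the high-share libraries modelled or removed. Reads without molecular identifiers are not independent molecules. Correlations used residuals from group means and that term, with 100000 permutations. The limma step was tested on simulated data. All 10 genes are named; of other lists, called genes with the 4 smallest p-values per direction at most. The 10 genes, the lists and the alternatives were chosen with earlier results of these data known. The study's litters and batches were not analysed here.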

Additional observations from a re-analysis of the deposited data

Results flagged for a closer look

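In 7 of 160 gene and group combinations a single library lay far from the rest of its group by Dixon's ratio, and chance flags about 1 in 20 groups. All 7 were the highest of their group. Tyrobp in hippocampal MIA PLX female 6 was 369.6 normalised reads, against 237 to 259.7 in the rest of the group, and this library is a high-share library. Apoe was 31441 in hippocampal MIA PLX male 2, against 20529 to 24107, and 32953 in hippocampal saline PLX female 1, against 20433 to 24510.0. Cst7 was 6.87 in prefrontal saline control female 3, against 1.89 to 3.66. Axl was 1401 in prefrontal saline PLX male 3, against 1242 to 1301. Lgals3 was 48.2 in hippocampal saline control male 1, against 14.4 to 26.6, and 15.4 in prefrontal MIA control female 2, against 1.02 to 6.96; both are high-share libraries.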

How the results depend on the processing

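The counts of called genes for the averaged PLX comparison depended on the high-share libraries. The counts, 3 in hippocampus and 2 in prefrontal cortex, became 0 in both tissues with a term for those libraries and 0 without them, also without the filter on low values (the last 2 settings were chosen after seeing the data). With all libraries and no filter, 1 gene (Cst7) was called higher and 3 lower in hippocampus, and 1 (Cst7) higher and 2 lower in prefrontal cortex. Counts of every other comparison stayed on the same side under the 10 other settings of the hippocampal fit, the 12 of the prefrontal fit and the 8 of the fit of both tissues. Without the high-share libraries, or with the term, signs also turned, with the same values without the filter. For PLX in hippocampus the term and the fit without them gave 0.07 and 0.05 for Trem2, 0.03 and 0.08 for Cd9, and 0.07 and 0.02 for Cd68. In prefrontal cortex they gave 0.0004 and 0.03 for Trem2 and 0.1 and 0.12 for Tyrobp. The term turned Lgals3 there to 0.16, and the fit without them turned Lpl to 0.02, Axl to -0.01 and Cd9 to 0.01. For MIA, the fit without them gave 0.02 for Lpl and -0.04 for Lgals3 in hippocampus, and 0.02 for Axl and -0.03 for Cd68 in prefrontal cortex. Trem2 in prefrontal cortex turned to 0.01 with the term and 0.03 without them. With all 16 prefrontal libraries of high share modelled and then left out, both chosen after seeing the data, the PLX count was 0, and PLX differences turned to 0.04 and 0.09 for Trem2, 0.11 and 0.13 for Tyrobp, 0.05 and 0.0007 for Apoe, -0.01 and -0.05 for Axl and 0.22 and 0.11 for Lgals3, with Lpl at 0.004 without them. For MIA they gave 0.01 and 0.05 for Trem2 and -0.04 without them for Cd68. None of these was called, and the cause was not tested. Near 0, Tyrobp for PLX in hippocampus was -0.01 with TMM scaling and -0.02 with edgeR and DESeq2, and Spp1 in prefrontal cortex was -0.003 with TMM scaling.

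Leaving out single libraries gave 2 to 3 called genes for PLX in hippocampus and 0 to 4 in prefrontal cortex, where 21 libraries moved the count by over 1.5 times. In prefrontal cortex Apoe lost its call without any 1 of 14 libraries, Cd9 gained one without any 1 of 15, and Lpl without MIA control male 5 or saline control female 3. The PLX pairs within a sex and prenatal treatment ranged from 0 to 1 in either tissue, the tissue comparison stayed at 7, and the remaining counts stayed at 0. Signs turned in the ranges of Tyrobp for PLX in hippocampus (-0.03 to 0.03) and Spp1 in prefrontal cortex (-0.04 to 0.05), and for MIA in prefrontal cortex of Trem2 (-0.05 to 0.004), Tyrobp (-0.01 to 0.04) and Axl (-0.02 to 0.01).

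With the replicate number as a block the averaged PLX counts were 3 and 2 and the MIA counts 0, and Tyrobp for PLX in hippocampus was -0.01. With the label shared by both tissues as a block, 8 genes were called between tissues, Trem2 added. The labels do not say that a number marks a shared animal or litter. Libraries of the same label in both tissues had a median r of 0.24 between their deviations, over 0.1 in 42 of 48. Cst7, at 0 to 11 reads, is limited by depth.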
